A study of Homo sapiens with 12 samples.

Results

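A set of 9 genes of the intermediate filament family is described here: the keratins KRT7, KRT8, KRT18, KRT19 and KRT80, vimentin (VIM), nestin (NES), synemin (SYNM) and lamin A/C (LMNA). They were taken from the deposited tables by Ensembl identifier, and are 9 of 59248 rows. Of the 9, 8 had enough counts to be among the 16489 genes tested, and KRT19 did not. The study infected cells of the established human osteosarcoma line SJSA-1 with lentivirus carrying either a nontargeting scramble shRNA (shNC) or 1 shRNA against the transcription factor RUNX2 (sh1), in a vector that also carries EGFP and puromycin resistance, and selected both with puromycin. The transcriptome comparison holds 6 shNC and 6 sh1 libraries and asks how silencing of RUNX2 changes gene expression. Whether libraries of a group come from separate infections or cultures is not stated, so p-values cover only the spread among these libraries, and this may be technical. Only 1 shRNA was set against 1 control.

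Intermediate filaments are ropes of coiled-coil proteins that give cells and nuclei mechanical strength. Type I and type II keratins assemble as pairs of unlike partners, with KRT8 and KRT18 the usual pair of simple epithelia, whereas vimentin is the filament of mesenchymal cells. Nestin and synemin are long type IV proteins that join vimentin or desmin filaments, and lamins line the inner face of the nuclear envelope.

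Total gene counts ranged from 15328312 to 19992974 in shNC and from 11239638 to 16346022 in sh1. The lowest total was that of sh1 replicate 3, which stands apart from the other sh1 libraries (14689309 to 16346022), so results that rest on it are also given without it. RUNX2, the targeted gene, lay between 35.5 and 46.2 CPM in shNC (median 37.7) and between 21.6 and 27.4 CPM in sh1 (median 24.8), where CPM is the count per 1000000 counts after TMM scaling. The groups did not overlap, and RUNX2 was lower in sh1 by a log2 fold change of -0.69 (SE 0.076, edgeR adjusted p = 4.6e-06). Log2 fold changes are sh1 over shNC throughout, and adjusted p-values come from edgeR's quasi-likelihood test with Benjamini-Hochberg adjustment over all 16489 genes. A gene is said to have risen or fallen where the adjusted p was under 0.05.

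Among all genes tested, 12.8% were higher and 13.3% were lower in sh1, and the 2 groups of libraries did not overlap for 11.9%. Of the 8 members tested, 3 rose (37.5%), namely KRT8, SYNM and NES, and none fell in edgeR's test or in that of DESeq2. At an unadjusted edgeR p under 0.05, 1 member, VIM, was lower. Only SYNM had no overlap between the groups (12.5% of the 8, close to the share of all genes). The median log2 fold change of the 8 members was 0.085, against -0.0035 over all genes and -0.12 over the 12 other tested intermediate filament genes. The members were chosen with earlier results of these data known, so these shares and medians are no test of the family. Without sh1 replicate 3, KRT80 also passed as higher and VIM as lower.

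**Figure D1:**
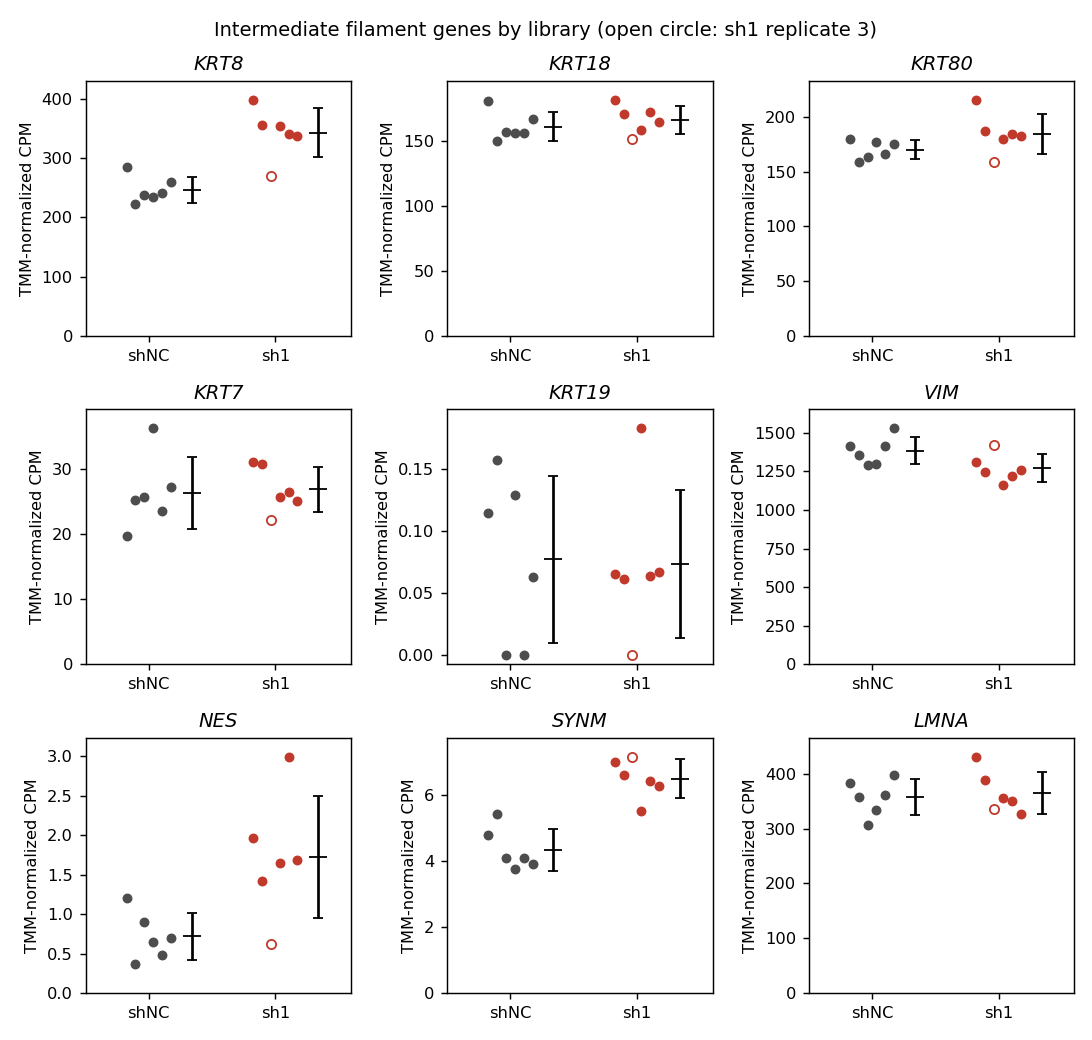
TMM-normalized CPM (vertical axis, linear) of the 9 members in the 6 shNC and 6 sh1 libraries, 1 point a library, with the mean and SD beside each group; the open circle is sh1 replicate 3. SYNM is the member whose groups do not overlap, and in KRT8 and NES the open circle is the only sh1 library within the shNC range.

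The RefSeq promoter table (GRCh38.p14, 250 bases before and 50 after each start site) had entries for 5 of the 9 members, in 7 windows. Entries were absent for KRT7, KRT18, KRT19 and KRT80, and that of KRT8 lies 21393 bases from the start of its canonical transcript. The 250 bases before the start site are shown for VIM, NES and SYNM, whose entries begin at the canonical start, because NES and SYNM rose while VIM, the filament they join, did not. They were searched on both strands for the RUNX core motifs TGTGGT and TGCGGT, which share all letters but the third, and a match is in capitals.
VIM, chr10:17227991-17228240, plus strand: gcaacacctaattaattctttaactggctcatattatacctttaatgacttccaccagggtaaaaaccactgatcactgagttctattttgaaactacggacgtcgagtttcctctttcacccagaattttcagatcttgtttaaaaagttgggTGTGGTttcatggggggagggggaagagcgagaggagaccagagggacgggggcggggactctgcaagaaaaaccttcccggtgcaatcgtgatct
NES, chr1:156677408-156677657, minus strand: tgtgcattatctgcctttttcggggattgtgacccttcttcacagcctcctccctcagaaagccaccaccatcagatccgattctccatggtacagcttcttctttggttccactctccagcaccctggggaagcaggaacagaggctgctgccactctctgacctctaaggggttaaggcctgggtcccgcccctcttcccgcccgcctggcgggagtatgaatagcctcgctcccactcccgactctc
SYNM, chr15:99104830-99105079, plus strand: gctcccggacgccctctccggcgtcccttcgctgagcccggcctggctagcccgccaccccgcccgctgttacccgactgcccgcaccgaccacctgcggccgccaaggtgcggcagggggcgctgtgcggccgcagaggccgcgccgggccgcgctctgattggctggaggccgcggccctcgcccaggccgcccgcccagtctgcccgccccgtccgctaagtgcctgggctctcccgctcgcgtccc
The TGTGGT match of VIM, at -96 to -91 from the start site on the plus strand, was the only match in the 7 windows of 300 bases. Over the 35116 promoter windows of that length in the table, 13.1% hold TGTGGT and 7.30% hold TGCGGT. In base composition the 3 windows differ widely. The GC content of the 300 bases is 48.0% for VIM, 60.3% for NES and 79.0% for SYNM, and the windows hold 10, 14 and 43 CpG dinucleotides (medians of all windows 58.7% and 14).

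KRT8, the type II keratin of simple epithelia, rose in sh1. Its gene lies on chromosome 12 from 52897187 to 52949954 (GRCh38, minus strand, ENSG00000170421). In shNC it ranged from 222 to 284 CPM (median 239), and in sh1 from 270 to 398 CPM (median 348). All sh1 libraries but replicate 3, at 270 CPM, lay above every shNC library. The means were 246 CPM ± 22.4 in shNC and 343 CPM ± 41.6 in sh1 (SD, n = 6). This is a log2 fold change of 0.48 (SE 0.078, edgeR adjusted p = 0.00021; exact permutation test of the log2 CPM means, two-sided, p = 0.0043). Without sh1 replicate 3 the log2 fold change was 0.55.

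KRT18, the type I partner of KRT8, overlaps the outer end of the KRT8 gene model on the opposite strand (chromosome 12, 52948871 to 52952906, plus strand, ENSG00000111057). Its level was 150 to 180 CPM in shNC (median 156) and 151 to 181 CPM in sh1 (median 167). The ranges coincide almost completely. The log2 fold change was 0.05 (SE 0.055, edgeR adjusted p = 0.55; exact permutation test, two-sided, p = 0.37), with a 95% interval from -0.06 to 0.16.

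The balance of the pair differed between the groups. Per length, on the FPKM scale, the ratio of KRT8 to KRT18 was 0.693 to 0.737 in shNC (mean 0.716 ± 0.0176, SD, n = 6) and 0.837 to 1.05 in sh1 (mean 0.962 ± 0.0758). Every sh1 library lay above every shNC library, sh1 replicate 3 being the lowest of the 6, and without it the sh1 mean was 0.987. As counts, the mean ratio was 1.53 in shNC and 2.06 in sh1. Whether a ratio lies above 1 depends on the gene lengths behind FPKM (6881 bases for KRT8, 3218 for KRT18). The relative difference between the groups does not. KRT8 likewise made up a larger part of the summed FPKM of all keratins, at 5.47% to 8.16% in shNC and 8.56% to 10.5% in sh1, again without overlap. These ratios are descriptions built from members already tested.

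**Figure D2:**
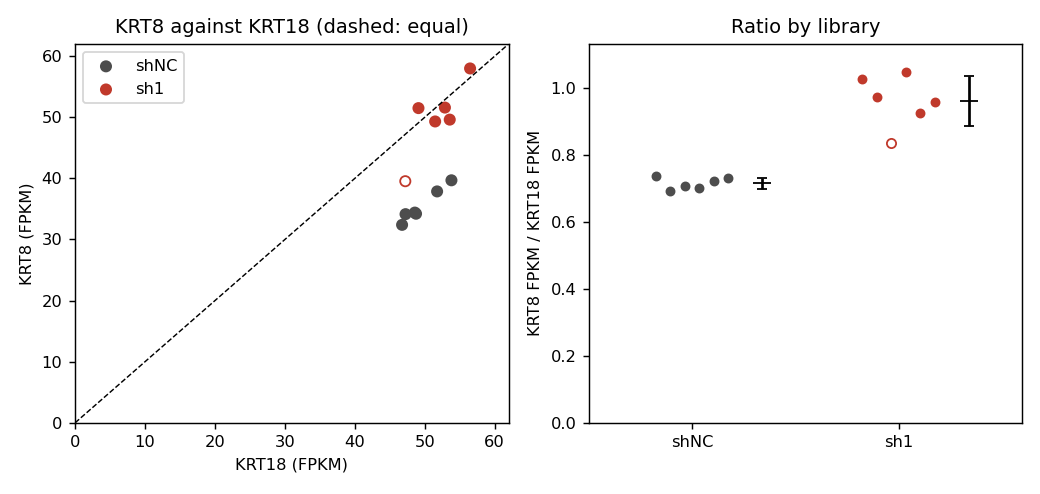
Left, FPKM of KRT8 against FPKM of KRT18, 1 point a library, with a dashed line where both are equal; right, the ratio of KRT8 to KRT18 FPKM by library with each group's mean and SD, the open circle being sh1 replicate 3. All shNC libraries sit below the dashed line, at ratios of 0.693 to 0.737, and the sh1 libraries at 0.837 to 1.05.

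Reads of this pair carry 2 limits. The genes share 525 exonic bases on opposite strands and the kit used keeps no strand information, so reads from there cannot be assigned. KRT8 and KRT18 also have 51 and 67 annotated pseudogenes. The counts listed under them equal 9.28% to 19.4% of the KRT8 count and 1.99% to 3.13% of the KRT18 count. With those counts added to the parent genes, the log2 fold change of KRT8 was 0.40 (edgeR adjusted p = 0.00044) and that of KRT18 was 0.06.

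KRT80, a type II keratin found near desmosomal plaques in many epithelia, did not pass (chromosome 12, 52168996 to 52192014, minus strand, ENSG00000167767). It ranged from 159 to 179 CPM in shNC (median 171) and from 159 to 216 CPM in sh1 (median 183). In 5 of 6 sh1 libraries KRT80 lay above every shNC library, and sh1 replicate 3, at 159 CPM, was close to the lowest shNC library. The log2 fold change was 0.12 (SE 0.061, edgeR adjusted p = 0.16; exact permutation test, two-sided, p = 0.084). Without sh1 replicate 3 it was 0.17 (edgeR adjusted p = 0.029).

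KRT7, a type II keratin of ductal and glandular epithelia, did not pass either (chromosome 12, 52232520 to 52252186, plus strand, ENSG00000135480). In shNC it spanned 19.8 to 36.2 CPM (median 25.5), and in sh1 22.2 to 31.0 CPM (median 26.1), so that the sh1 range lay within the shNC range. The log2 fold change was 0.04 (SE 0.12, edgeR adjusted p = 0.85; exact permutation test, two-sided, p = 0.76). Its sign turned to -0.03 without shNC replicate 1. KRT7 shares 282 exonic bases with KRT7-AS, which had 10 to 29 counts a library.

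KRT19, the smallest keratin and a common epithelial marker, was near 0 (chromosome 17, 41523617 to 41528308, minus strand, ENSG00000171345). It had 8 counts in all shNC libraries together and 7 in all sh1 libraries, with 0 to 3 counts in any library. For scale, 3 counts over the 12 libraries amount to 0.0155 CPM. With the filter on low counts off, its log2 fold change was 0.0040 (SE 0.59, edgeR adjusted p = 0.997), with an SE too wide to show a modest difference.

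Per length, VIM was the most abundant member (chromosome 10, 17228241 to 17237593, plus strand, ENSG00000026025). It lay between 1293 and 1527 CPM in shNC (median 1383) and between 1162 and 1423 CPM in sh1 (median 1252). In 4 of 6 sh1 libraries VIM was below every shNC library, and sh1 replicate 3 was the highest sh1 library. The log2 fold change of -0.12 did not pass (SE 0.055, edgeR adjusted p = 0.11; exact permutation test, two-sided, p = 0.054), whereas without sh1 replicate 3 it was -0.15 (edgeR adjusted p = 0.048). VIM shares 656 exonic bases with the antisense gene VIM-AS1, which had 93 to 253 counts a library, against 16104 to 25834 for VIM.

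SYNM, which links intermediate filaments to adhesion sites and to other cytoskeletal proteins, rose (chromosome 15, 99098217 to 99135593, plus strand, ENSG00000182253). It ranged from 3.75 to 5.42 CPM in shNC (median 4.09) and from 5.51 to 7.16 CPM in sh1 (median 6.52). All 6 sh1 libraries were above all 6 shNC libraries, with sh1 replicate 3 the highest. Group means were 4.34 CPM ± 0.636 and 6.50 CPM ± 0.585 (SD, n = 6), a log2 fold change of 0.57 (SE 0.11, edgeR adjusted p = 0.0012). The exact permutation test gave p = 0.0022 (two-sided), the smallest value that 6 against 6 libraries allow. SYNM-AS2 shares 2027 exonic bases with SYNM and had at most 3 counts in a library.

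NES, known from neural and muscle precursor cells and from proliferating tumour cells, also rose, from a low level (chromosome 1, 156668763 to 156677407, minus strand, ENSG00000132688). Its counts were 7 to 47 a library. In shNC it ranged from 0.368 to 1.21 CPM (median 0.669) and in sh1 from 0.619 to 3.00 CPM (median 1.67). In 5 of 6 sh1 libraries NES lay above every shNC library, and sh1 replicate 3 lay among the shNC libraries. The log2 fold change was 1.28 (SE 0.31, edgeR adjusted p = 0.0056; exact permutation test, two-sided, p = 0.017), and 1.44 without sh1 replicate 3. In bulk RNA, more cells of a kind that carries a transcript and more transcript per cell cannot be told apart.

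LMNA, the gene of both A-type lamins, did not pass (chromosome 1, 156082573 to 156140081, plus strand, ENSG00000160789). It spanned 308 to 398 CPM in shNC (median 360) and 327 to 431 CPM in sh1 (median 353). The groups overlapped over most of their ranges. The log2 fold change was 0.03 (SE 0.072, edgeR adjusted p = 0.79; exact permutation test, two-sided, p = 0.74; 95% interval -0.11 to 0.17), and -0.01 without sh1 replicate 1.

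FPKM divides each count by a gene length, so the order of genes given here depends on the lengths used. Those implied by the counts and FPKM were 5158 bases for VIM, 6985 for LMNA, 3218 for KRT18, 6881 for KRT8 and 4350 for KRT80. VIM stood far above the other members, at 266 FPKM ± 16.4 in shNC and 247 ± 18.0 in sh1 (SD, n = 6). LMNA, KRT18, KRT8 and KRT80 followed between 32.4 and 61.9 FPKM. Within this set LMNA and KRT18 overlapped in both groups and KRT8 and KRT80 overlapped in both groups. KRT8 lay below KRT18 without overlap in shNC (35.5 ± 2.74 against 49.5 ± 2.75 FPKM), whereas in sh1 the ranges overlapped (49.9 ± 5.98 against 51.8 ± 3.31 FPKM). KRT7 came next at 6.49 FPKM over all libraries, then SYNM at 0.692, NES at 0.219 and KRT19 at 0.0323. KRT7, SYNM and NES were each separated from the next member without overlap within a group, except that NES and KRT19 met at about 0.067 FPKM in shNC.

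**Figure D3:**
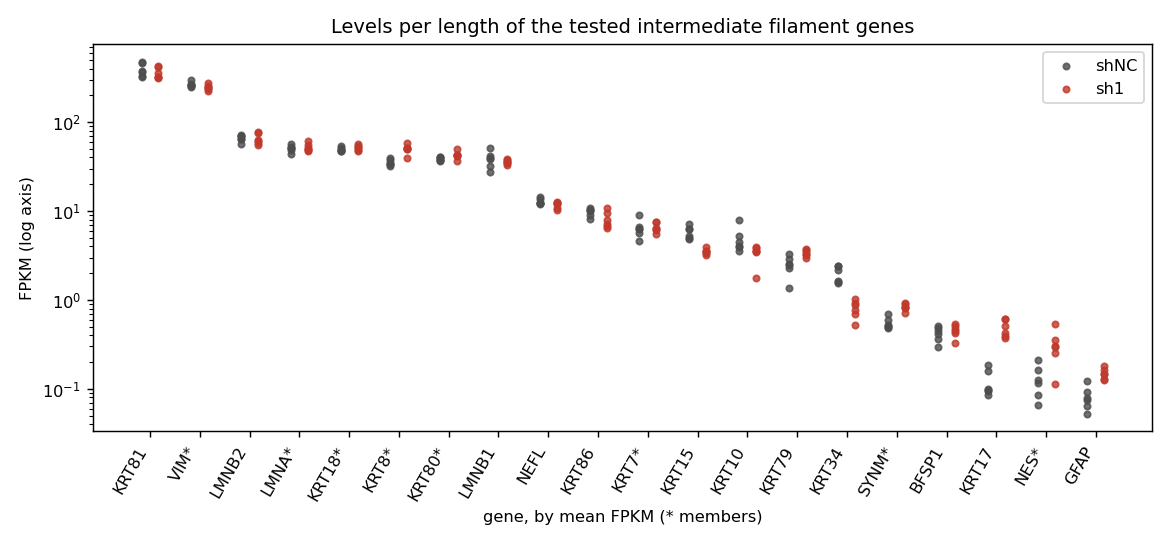
FPKM (vertical log axis) of the 20 tested intermediate filament genes in order of their mean, 1 point a library, shNC grey and sh1 red; members carry an asterisk. KRT81, which is no member, at 376 FPKM, and VIM at 256 FPKM stand above the rest, and NES is the lowest member drawn. KRT81 is above VIM only per gene length (1929 against 5158 bases), as VIM had more counts in all (257097 against 141087).

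The whole family was examined for context. Of 70 intermediate filament genes in the tables, 20 were tested. Of the 20, 6 rose (30%, against 12.8% of all genes), 2 fell (10%, against 13.3%) and 12 did not pass. A further 19 had no count in any library. Besides the members, 12 of 61 genes were tested, of which 3 rose (25%) and 2 fell (16.7%), with a median log2 fold change of -0.12. The family took 0.373% of all counts in shNC and 0.367% in sh1, within the spread of the libraries. Without sh1 replicate 3, 7 of the family's genes were higher and 3 were lower.

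Type I keratins moved in both directions. Of 5 tested, 1 rose (20%, against 12.8% of all genes) and 2 fell (40%, against 13.3%), with a median of -0.55. KRT17, a keratin of stressed and regenerating epithelium, rose from 0.380 CPM ± 0.135 to 1.52 CPM ± 0.325 (SD, n = 6), a log2 fold change of 2.00 (SE 0.24, edgeR adjusted p = 1.1e-05). It rests on low counts, 5 to 29 a library. KRT15, a keratin of basal cells, fell from 41.3 CPM ± 6.17 to 24.7 CPM ± 1.67, a log2 fold change of -0.74 (SE 0.088, edgeR adjusted p = 8.7e-06). The hair keratin KRT34 fell from 3.47 CPM ± 0.713 to 1.40 CPM ± 0.306, a log2 fold change of -1.31 (SE 0.18, edgeR adjusted p = 4.6e-05). For each of KRT17, KRT15 and KRT34 the groups did not overlap (60% of the 5 tested, against 11.9% of all genes). KRT10, the type I keratin of the upper epidermis, did not pass at a log2 fold change of -0.55 (edgeR adjusted p = 0.051). It was -0.33 without shNC replicate 1 (edgeR adjusted p = 0.13) and -0.42 without sh1 replicate 3 (edgeR adjusted p = 0.096), and passed without shNC replicate 3, 4 or 6 (lowest edgeR adjusted p = 0.027).

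Of 6 type II keratins tested, 2 rose (33.3%, against 12.8% of all genes) and none fell (against 13.3%), with a median of 0.078. KRT79 joined KRT8, with a log2 fold change of 0.45 (SE 0.14, edgeR adjusted p = 0.025), and did not pass without sh1 replicate 6 (edgeR adjusted p = 0.051). The most abundant keratin per length was the hair keratin KRT81, at 376 FPKM over all libraries. It made up 71.2% of the summed keratin FPKM in shNC (66.0% to 74.6%) and 67.7% in sh1 (65.1% to 70.2%), with overlapping ranges. The size of this share depends on the gene lengths behind FPKM, 1929 bases for KRT81 and 6881 for KRT8. The log2 fold change of KRT81 was -0.12 (SE 0.10, edgeR adjusted p = 0.40). KRT86 is nearly identical to KRT81 in sequence, so the split of reads between them is uncertain. KRT86 stood at a log2 fold change of -0.27 (edgeR adjusted p = 0.084), which passed without sh1 replicate 2 (edgeR adjusted p = 0.016), and the summed counts of both genes at -0.13 (edgeR adjusted p = 0.38).

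Among type III genes GFAP, the filament of astrocytes, was the other tested gene besides VIM. It rose from 0.985 CPM ± 0.298 to 1.80 CPM ± 0.240 without overlap (log2 fold change 0.88, SE 0.20, edgeR adjusted p = 0.0033), at 12 to 34 counts a library. Of 3 type IV genes tested, SYNM and NES rose (66.7%, against 12.8% of all genes), and the neurofilament gene NEFL stood at -0.15 (SE 0.068, edgeR adjusted p = 0.12). None of the 3 lamins passed in edgeR's test or in that of DESeq2, and 0 of 3 had an unadjusted edgeR p under 0.05. LMNB1 was at -0.11 and LMNB2 at -0.05 on the log2 scale. LMNB1 ran from -0.19 without shNC replicate 4 to -0.0055 without shNC replicate 1, and LMNB2 turned to 0.0031 without sh1 replicate 3. The ratio of A-type to B-type lamin FPKM was 0.487 ± 0.0341 in shNC and 0.520 ± 0.0189 in sh1 (SD, n = 6), with overlapping ranges. Of the lens filament genes 1 was tested, BFSP1, at 0.08 (edgeR adjusted p = 0.78).

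**Figure D4:**
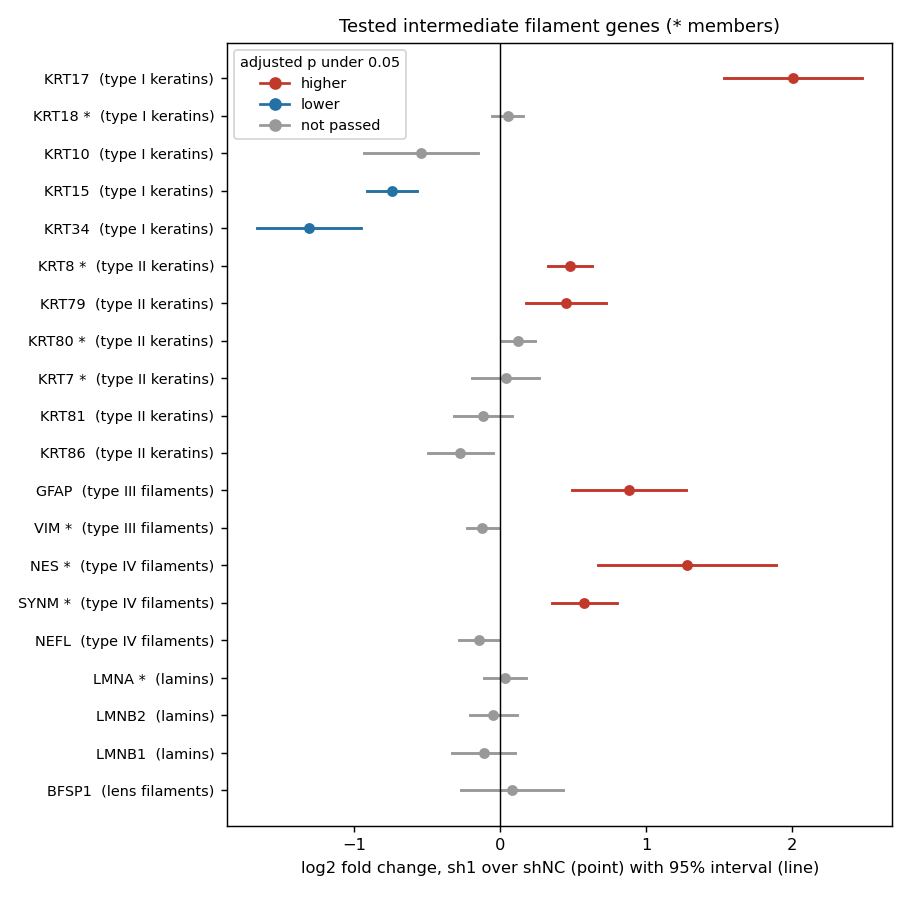
Log2 fold change of sh1 over shNC (horizontal axis, point) with its 95% interval (line) for the 20 tested intermediate filament genes, grouped by type; red passed as higher, blue as lower, grey did not pass, and an asterisk marks members. Rises and falls stand side by side among type I keratins, from 2.00 for KRT17 to -1.31 for KRT34, and the lamins lie close to 0.

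Lamins are anchored by membrane proteins and processed by a set of enzymes. Of 20 such genes 19 were tested, with a median log2 fold change of -0.046. Of the 19, 3 rose (15.8%, against 12.8% of all genes) and 4 fell (21.1%, against 13.3%). SYNE1, the giant nesprin that links nuclei to the cytoskeleton, fell from 181 CPM ± 32.1 to 71.1 CPM ± 5.41 (SD, n = 6), a log2 fold change of -1.35 (SE 0.095, edgeR adjusted p = 2.2e-08). SYNE2, the other giant nesprin, fell by 0.31 on the log2 scale. SUN1, the inner membrane anchor of nesprins, rose by 0.30 (SE 0.039, edgeR adjusted p = 3.1e-05). The lamin B receptor LBR rose by 0.24 (edgeR adjusted p = 0.0076). SUN2 rose by 0.22 (SE 0.079), close to the threshold (edgeR adjusted p = 0.045) and highest in sh1 replicate 1 at 97.8 CPM. Its dependence on single libraries was not tested. SYNE1, SYNE2, SUN1 and ZMPSTE24 had no overlap between the groups (21.1% of the 19, against 11.9% of all genes). The prelamin A protease ZMPSTE24 fell by 0.32 (SE 0.050, edgeR adjusted p = 0.00017), and the methyltransferase ICMT, which acts in the same maturation, fell by 0.26 (SE 0.063, edgeR adjusted p = 0.0061). BANF1, the most abundant of the list per length, stood at -0.05 (edgeR adjusted p = 0.71).

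Cytolinkers and desmosomal proteins tie filaments to junctions. Of 22 genes 14 were tested, 2 rose and 2 fell, with a median of 0.057. These are 14.3% each, close to the 12.8% and 13.3% of all genes. FLG, which bundles keratin filaments in the epidermis, rose from 31.7 CPM ± 4.52 to 79.2 CPM ± 5.78 without overlap (log2 fold change 1.32, SE 0.082, edgeR adjusted p = 5.8e-09). Desmoplakin (DSP), the desmosomal anchor of keratins, rose from 56.6 CPM ± 3.28 to 67.0 CPM ± 4.24 (log2 fold change 0.24, SE 0.056, edgeR adjusted p = 0.0040). Plectin (PLEC), which crosslinks vimentin and keratin filaments, fell from 770 CPM ± 78.4 to 623 CPM ± 94.9 (log2 fold change -0.30, SE 0.088, edgeR adjusted p = 0.016). PNN, a nuclear and desmosome-associated protein and the most abundant of the list per length, fell by 0.21 (SE 0.066, edgeR adjusted p = 0.023), and did not pass without shNC replicate 2 or 5 or sh1 replicate 1 or 6 (highest edgeR adjusted p = 0.073).

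**Figure D5:**
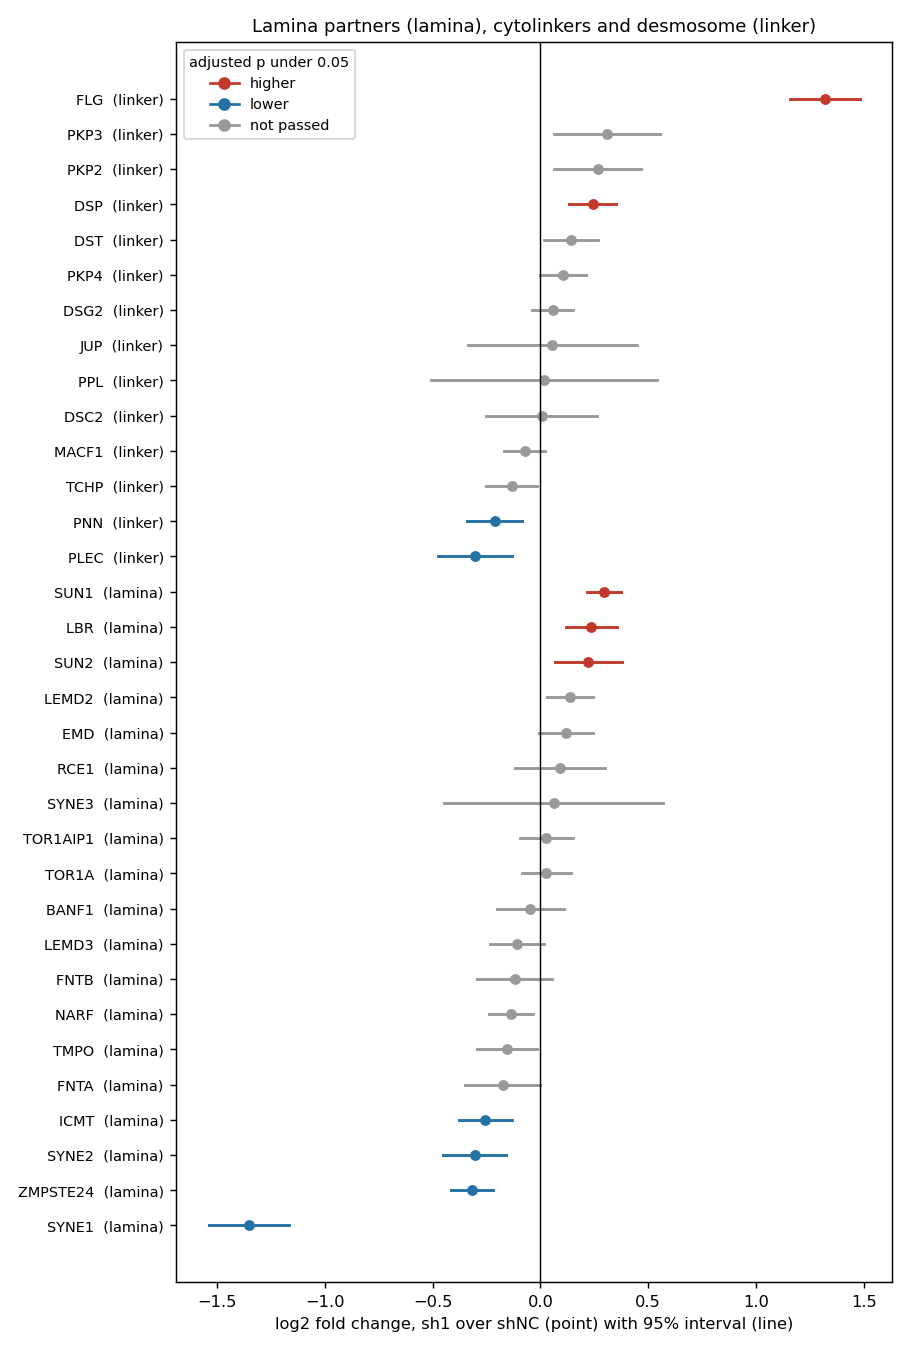
Log2 fold change of sh1 over shNC (horizontal axis, point) with its 95% interval (line) for the tested partners of lamins (lamina) and of cytoplasmic filaments (linker); red passed as higher, blue as lower, grey did not pass. FLG at 1.32 and SYNE1 at -1.35 lie farthest from 0.

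Keratins are epithelial genes, so markers of epithelium were read beside them. Of 22 epithelial markers, 6 were tested, and 1 rose and 1 fell (16.7% each, against 12.8% and 13.3% of all genes). A further 2, among them CDH1 (E-cadherin), had no count in any library. EPCAM had 0 to 3 counts a library. The list's summed level was 1246 to 1921 CPM in shNC and 1243 to 1505 CPM in sh1. Most of it was the laminin gene LAMB3, at 1373 CPM ± 216 and 1158 CPM ± 112 (SD, n = 6; log2 fold change -0.25, edgeR adjusted p = 0.051). It passed without shNC replicate 1 (edgeR adjusted p = 0.0067) and was -0.16 without shNC replicate 4 (edgeR adjusted p = 0.13). CLDN4, a tight junction claudin, fell by 0.58 on the log2 scale (edgeR adjusted p = 0.029). It did not pass without shNC replicate 3, 4 or 6 or sh1 replicate 1, 3, 4 or 6 (highest edgeR adjusted p = 0.069). The splicing factor gene ESRP1 stood at -0.72 (edgeR adjusted p = 0.11).

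Other markers were counted in the same way. Of 10 osteoblast markers 6 were tested. Of the 6, 3 rose (50%, against 12.8% of all genes), SPARC by 0.66, COL1A1 by 1.49 and CDH11 by 0.93. RUNX2 fell (16.7%, against 13.3%), and SPP1 and COL1A2 did not pass. COL1A1 was 8.57 CPM in sh1 replicate 3 and 16.0 to 19.1 CPM in the other sh1 libraries, against at most 7.90 CPM in shNC. Outliers and dependence on single libraries were not tested for COL1A1 and CDH11. SP7, ALPL and BGLAP, which define differentiated osteoblasts, had 0 to 5 counts a library, and the list summed to 1450 to 1702 CPM in shNC and 2129 to 2788 CPM in sh1. Most of this sum was SPARC, at 1342 to 1555 CPM in shNC and 1968 to 2589 CPM in sh1. Of MDM2 and CDK4, which are amplified in SJSA-1, MDM2 was the more abundant per length, at 912 CPM ± 83.4 and 1125 CPM ± 112 (log2 fold change 0.30, edgeR adjusted p = 0.0042). CDK4 did not pass, at a log2 fold change of -0.041. NES and GFAP are also neural genes. Of 7 neural markers 3 were tested and none passed, with MAP2 at 0.35 (edgeR adjusted p = 0.088; 0.024 without sh1 replicate 3), SOX2 at 0 to 3 counts a library and a summed level of 7.43 to 9.39 CPM in shNC and 7.95 to 12.4 CPM in sh1. Of 7 muscle markers 3 were tested and 1 rose (33.3%, against 12.8% of all genes), ACTA2 by 0.83. MYOD1 and MYOG had 0 or 1 count a library, and the list summed to 30.6 to 35.1 CPM in shNC and 35.3 to 41.6 CPM in sh1. Of 6 blood and endothelial markers 1 was tested, PECAM1, at 0.41 (edgeR adjusted p = 0.31), and at 0.71 without shNC replicate 3 (edgeR adjusted p = 0.055). The part of these marker genes in the changes of the members was not tested.

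The genes whose profile over the 12 libraries was most like that of each member that rose were found by the mean absolute difference of log2 CPM, each gene centred on its own mean. For KRT8 these were CNN2 (0.0551, against a median of 0.28 over 11564 genes) and PDLIM1 (0.0657), both actin-associated proteins. For SYNM they were CYP27C1 (0.0658, median 0.32) and LMO7 (0.107). For NES they were PDGFRB (0.301, median 0.70 over 11565 genes), a receptor of mesenchymal and mural cells, and RAB26 (0.304). The match used the libraries of both groups, so a higher level in sh1 follows from the likeness to members that rose. Log2 fold changes were 0.53 for CNN2, 0.49 for PDLIM1, 0.58 for CYP27C1, 0.60 for LMO7, 1.11 for PDGFRB and 0.70 for RAB26.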

How the data were processed

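The 12 RNA libraries of SJSA-1 cells were grouped by their labels into 6 shNC and 6 sh1. The authors enriched polyadenylated RNA, prepared libraries with an unstranded kit, trimmed read pairs, aligned them with HISAT2 to GRCh38 and counted them per gene with featureCounts. No version of either program was found in the methods or labels. The deposited gene counts are whole numbers and were not normalized, and the FPKM values were calculated by the authors from those counts per kilobase of gene length and per 1000000 reads. A deposited table of counts divided by size factors was not used. Of 59248 rows, 58676 had an Ensembl identifier, and 58207 matched GENCODE 44, which gave symbols and coordinates. The 572 other rows stayed in library totals.

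Counts were scaled by TMM, filtered by filterByExpr and tested with edgeR 4.0.16 in R 4.3.3 (glmQLFit and glmQLFTest, Benjamini-Hochberg adjustment, threshold 0.05). Each SE is the log2 fold change over the root of its F statistic. Exact permutation tests used all 924 splits of 6 against 6 libraries. Alternatives were RLE, upper quartile and total-count scaling, no filter on low counts, at least 10 counts in every library, DESeq2 1.42.0, robust edgeR, limma 3.58.1 on log2(FPKM + 1) and log2(FPKM + 0.1), a replicate block, pseudogene counts added to KRT8 and KRT18, and leaving out each library. Summing KRT81 and KRT86, and the KRT8 to KRT18 ratio without sh1 replicate 3, were alternatives chosen after seeing the data.

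The members and the 14 gene lists were chosen with earlier results of these data known. Named genes are the members, every tested filament gene, the 4 smallest p-values and the most abundant gene of the lists of lamina partners, cytolinkers and epithelial markers, the most abundant gene of the other marker lists, RUNX2, and for each member that passed the 2 tested protein-coding genes (mean log2 CPM of at least 1) with the most similar profile. Of the epithelial list, 1 gene is not reported here. LBR, SUN2, SYNE2, COL1A1, CDH11, SPP1, COL1A2, CDK4, DES, KRT33B and the marker genes named for being near 0 were named after their values were seen. The fit was tested on simulated counts. It recovered 13 of 50 genes changed 1.25-fold, 32 of 50 changed 1.5-fold, 45 of 50 changed 2-fold and 47 of 50 changed 4-fold. It also called 6 unchanged genes. A gene that did not pass may therefore still differ by a small fold. No libraries were identical.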

Additional observations from a re-analysis of the deposited data

Results flagged for a closer look

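Within-group outliers were looked for with Dixon's test at the 95% level in 116 groups of 6 libraries, of which chance would single out about 1 in 20, or 5.8, and 4 were found. The total gene count of sh1 replicate 3 was 11239638, far below the other sh1 libraries (14689309 to 16346022). KRT10 was 3.71 CPM in sh1 replicate 3 and 7.35 to 8.41 CPM in the other sh1 libraries. RAB26, one of the genes with a profile like that of NES, was 4.42 CPM in sh1 replicate 3 and 7.16 to 8.43 CPM in the others. KRT19 was 0.184 CPM in sh1 replicate 4, which is 3 counts, against 0 to 0.0676 CPM in the other sh1 libraries.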

How the results depend on the processing

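All 8 tested members kept their direction and their side of the threshold under every alternative scaling, filter, tool and unit that kept them and with the replicate block. Log2 fold changes ran from 0.40 to 0.49 for KRT8, 0.24 to 0.59 for SYNM and 0.21 to 1.30 for NES. The low ends for SYNM and NES come from log2(FPKM + 1), a pseudocount above their levels, and NES is not tested at 10 counts in every library. Leaving out each library gave 0.44 to 0.55 for KRT8, 0.035 to 0.085 for KRT18, 0.084 to 0.17 for KRT80 (passed at 0.17, without sh1 replicate 3), -0.034 to 0.16 for KRT7, -0.15 to -0.088 for VIM (passed at -0.15, without sh1 replicate 3), 1.06 to 1.49 for NES, 0.54 to 0.66 for SYNM and -0.010 to 0.071 for LMNA. LMNB2 ran from -0.092 to 0.0031 and BANF1 from -0.080 to 0.0082 (without sh1 replicate 6). Filament genes lower in sh1 numbered 2, and 4 with no filter. All genes past a 2-fold change numbered 198 higher and 146 lower. They were 464 and 257 with no filter, 105 and 76 at 10 counts in every library, and 12 and 21 with log2(FPKM + 1), while 325 were higher with DESeq2 and 112 with log2(FPKM + 0.1). Fewer genes tested and the pseudocount bear on these counts by construction, and the cause of the rest was not tested. Same-numbered libraries did not deviate together (correlations -0.16 to 0.033, 0 of 6 above 0.1, 0 of 6 best with their own number). Such correlations over 6 pairs show no strong pairing by number and cannot exclude a weak one. With the replicate block 1680 genes were higher and 1701 lower, KRT10 passed (edgeR adjusted p = 0.036), and PNN and CLDN4 did not (0.053 and 0.057). KRT10 also passed with DESeq2 (adjusted p = 0.032) and with no filter (0.0054), as did LAMB3 (0.047 and 0.0062). GFAP and CLDN4 did not pass with log2(FPKM + 1) (limma adjusted p = 0.065 and 0.069), nor PLEC, PNN and CLDN4 with log2(FPKM + 0.1) (0.062, 0.064 and 0.070). At 7 to 47 counts a library NES, and at 0 to 3 KRT19, are limited by depth, as are KRT17 at 5 to 29 and GFAP at 12 to 34.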

Other observations

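With no filter on low counts, 31 further intermediate filament genes had a count and 2 of them passed. DES, the muscle filament that synemin and nestin join, had 0 to 0.324 CPM in shNC and 0.541 to 2.14 CPM in sh1, without overlap. It had 133 counts in all, 17 of them in shNC, and a log2 fold change of 2.91 (SE 0.41, edgeR adjusted p = 2.1e-07). KRT33B, a hair keratin, had 11 counts in all, each of them in shNC libraries (edgeR adjusted p = 0.019), and was at 0 in sh1. Both were singled out after their values had been seen.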
